A study of Mus musculus with 282 samples.

Results

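Single hematopoietic stem cells (HSCs) of adult mouse bone marrow were divided by whether a transcript of Cdk6, a G1 cyclin-dependent kinase, was found in them. Of 282 single-cell libraries, 232 were kept, with a minimum of 100000 counts on genes and 1000 genes found. Of these, 90 cells carried Cdk6 at 10 CPM or more, where CPM is a gene's count after all cells are scaled to the same total on genes, and are called Cdk6-detected. Another 124 cells had 0 Cdk6 reads and are called Cdk6-negative, and 18 cells between the limits were left out. The classes were chosen by the measured Cdk6 value alone, so Cdk6 itself is described and not tested.

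The cells were sorted as LSK (lineage-negative, Sca-1+, Kit+) CD48-/lo CD150+. All cells came from 1 condition: mice with rtTA/rtTA at Rosa26 and H2B-GFP/H2B-GFP at Col1a1, a doxycycline-driven histone label, not induced with doxycycline. The series description gives 6 mice aged 12 to 22 weeks in 2 experiments, but the labels do not tie a cell to a mouse. Cells fall into 6 sets by library series and HSC code: HSC-3 and HSC-4 of series L29, and HSC-2, HSC-3, HSC-4 and HSC-5 of series L32. Values given by set follow this order where no set is named. The 2 classes were compared within each set, and the 6 differences were then tested. The sets are not known to be separate mice, so a p-value here speaks of set-to-set spread alone, and that spread may be technical.

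As background, Cdk6 and its close relative Cdk4 bind D-type cyclins and phosphorylate the retinoblastoma protein, which releases E2F factors and allows passage from G1 into S phase. In blood stem cells Cdk6 is known for setting how fast a quiescent cell leaves G0. Most HSCs of this gate are quiescent, with little RNA and few proliferation transcripts.

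Cdk6 (ENSMUSG00000040274) spans chromosome 5, 3341485 to 3531008 on the plus strand of mm10, with 13989 exonic bases. In the Cdk6-detected cells its level ran from 10.9 to 1490 CPM, with a median of 147 CPM and quartiles of 46.7 and 372 CPM. These values rest on 4 to 665 reads a cell. Cdk6 stood at 100 CPM or more in 53 of the 90 cells and at 500 CPM or more in 14. The 3 cells just inside the limit had 10.9, 15.4 and 19.2 CPM, and the 3 just outside had 9.1, 8.76 and 8.55 CPM. The level was graded within the detected class, with few cells near the limit.

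Detected cells of the L29 sets had the higher medians. Median Cdk6 in detected cells was 221 CPM in L29 HSC-3, 201 in L29 HSC-4, 120 in L32 HSC-2, 68.8 in L32 HSC-3, 131 in L32 HSC-4 and 115 in L32 HSC-5, and the ranges of all 6 overlap.

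**Figure D1:**
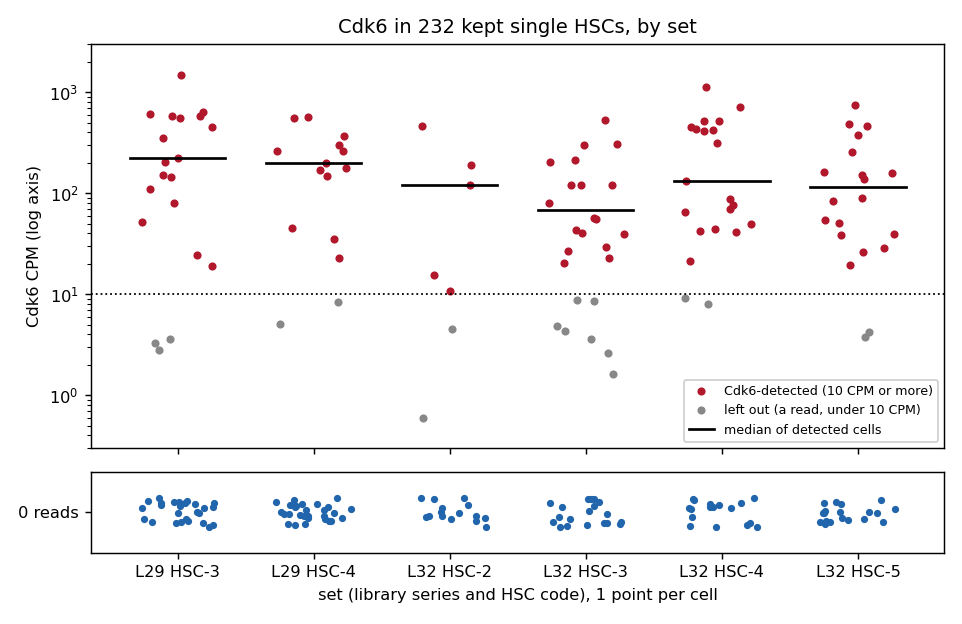
Cdk6 level of each kept cell, 1 point per cell, on a log CPM axis (upper panel) with cells at 0 reads below, by set. Black bars are medians of the detected cells; the dotted line is the limit of 10 CPM. Every set holds detected cells above 100 CPM beside cells at 0 reads.

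The Cdk6-detected share of kept cells was 38.8% (90 of 232, exact Clopper-Pearson 95% interval 32.5 to 45.4%, counting error only) and 37.8% ± 10.2 over sets (SD, n = 6). By set it was 37.0% in L29 HSC-3 (17 of 46) and 30.2% in L29 HSC-4 (13 of 43). It was 22.7% in L32 HSC-2 (5 of 22), 40.9% in L32 HSC-3 (18 of 44), 50.0% in L32 HSC-4 (19 of 38) and 46.2% in L32 HSC-5 (18 of 39). L32 HSC-2 was lowest and L32 HSC-4 highest, and their intervals (7.82 to 45.4% and 33.4 to 66.6%) overlap.

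Having 0 Cdk6 reads does not show that a cell lacks Cdk6 RNA. Counting 3 reads as the limit that 0 allows, a Cdk6-negative cell could hold up to 10.8 CPM in the median cell (2.04 to 25.1 CPM by cell). When each cell was thinned at random to 100000 gene counts, 89 of 90 detected, 6 of 18 intermediate and 0 of 124 negative cells had a Cdk6 read. The 0 of the negative cells is fixed by their definition. Thinning uses the same reads that chose the classes, so it describes depth only and does not test the classes. Among the 50 wells that failed the filter, 9 held 32 Cdk6 reads in all, at most 14 in 1 well. These wells are called near-empty here, but not all were empty: the well with 14 Cdk6 reads had 74667 gene reads. Most of them, 45 of the 50, belonged to codes HSC-2 and HSC-3 of series L32. Cdk6 came to 32.4 CPM there, against 48.1 CPM in the 66 kept cells with these codes. Such wells held 0.689 Cdk6 reads each on average, and 3 of the 50 wells reached the 4 reads of the least covered detected cell. The 45 wells held 957538 gene reads in all and the 66 kept cells 24407713, so their read numbers are not comparable. As CPM, the 32.4 of these wells lay above the limit of 10, but 1 well supplied 14 of the 31 Cdk6 reads behind it. That pooled value is therefore not read as a background level. No well of L32 HSC-2 plate 2 was kept. Of the kept cells, 22 (L32 HSC-2) and 24 (L32 HSC-3) were of plate 1 and 20 of plate 2. How much background the detected class holds was not tested.

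The number of genes detected moved with the classes and is given first with depth and RNA quality. Kept cells had 116009 to 1680714 gene counts, with a median of 280096. Median gene counts were 293397 in Cdk6-detected and 279030 in Cdk6-negative cells, higher in detected cells in 4 of 6 sets. Median genes detected were 5882 against 5004, higher in detected cells in 6 of 6 sets by 354 to 1346 genes. After thinning to 100000 counts the medians were 4732 against 4050 genes. Set L29 HSC-4 stood apart: its negative cells had a median of 4040 genes and a mitochondrial share of 7.31%, against 4845 to 5283 genes and 3.11 to 3.94% in the negative cells of the other sets.

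**Figure D2:**
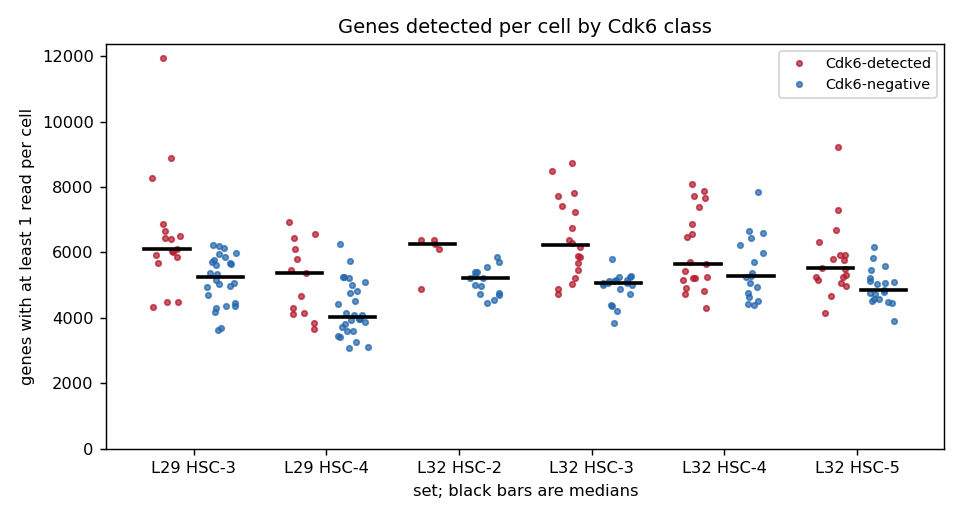
Genes with at least 1 read in each cell, by set and Cdk6 class, with black bars at the class medians. The median of the detected cells (red) lies above that of the negative cells (blue) in 6 of 6 sets, with wide overlap of single cells.

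RNA content, taken as log2 of gene reads per spike-in read, was higher in Cdk6-detected cells by 0.31 ± 0.28 (SD, n = 6 sets). The set differences were 0.45 in L29 HSC-3, 0.82 in L29 HSC-4, 0.19 in L32 HSC-2, 0.08 in L32 HSC-3, 0.10 in L32 HSC-4 and 0.25 in L32 HSC-5. All 6 were above 0, with the largest in the set that stands apart; without that set the mean was 0.21. A two-sided exact permutation test by sign flips returned p = 0.03125, which no result over 6 sets can undercut. After adjustment over the 2 such measures tested it was 0.0625. With the other measure at 0.4062, no lower adjusted value was possible over 6 sets. The difference therefore could not pass, and the adjusted test does not decide whether RNA content differed. With genes detected as a further covariate the difference was 0.09, above 0 in 4 of 6 sets (exact p = 0.4375). Mitochondrial share differed by -0.54 ± 1.22 percentage points (exact permutation p = 0.4062, adjusted 0.4062), below 0 in 4 of 6 sets and lowest in L29 HSC-4 at -2.82. The gene differences below were also fitted with total counts, with RNA content and mitochondrial share, in thinned cells and in matched cells, and limma called 0 genes in each of these fits.

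For each gene, values were taken as log2(CPM/10 + 1), and the class difference within a set was fitted across cells with plate and genes detected as covariates. A difference is therefore on that scale and understates the fold of low genes. No gene passed in limma or edgeR. Among 9688 genes tested, limma over sets called 0 higher (0%) and 0 lower (0%) at an adjusted p of 0.05, with a lowest adjusted p of 0.767. At an unadjusted p under 0.05 there were 529 genes (5.46%), 314 higher (3.24%) and 215 lower (2.22%). The difference lay above 0 in 6 of 6 sets for 173 genes (1.79%) and below 0 for 154 (1.59%), or 327 genes of 1 sign in all (3.38%). edgeR on counts summed per set and class also called 0 (lowest adjusted p 0.995, 384 genes unadjusted). DESeq2 on the same sums called 25 higher (0.258%) and 27 lower (0.279%), leaving 1315 genes without an adjusted p. Of these 52 genes, 50 had the same sign in limma and 18 had 1 sign in 6 of 6 sets. In data simulated with 50 genes raised 4-fold, limma found 22% of them and edgeR 24%, and limma found 2% of those raised 2-fold. In these simulated data a 2-fold difference of a single gene was thus rarely detectable with 6 sets. The simulation used the same fold in every set and did not build in the class difference in genes detected. Its shares are therefore not the power of the fit on the real cells.

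Described here are the genes of smallest p with 1 sign in every set, of which 0 passed in limma. On the higher side these were Sdf2, Manf, Ttc4, Gid4, Srm, Nr2c1, Srsf6, Tomm34, B9d2 and Zfp148, with differences from 0.83 to 1.28 and an adjusted p of 0.767 each (limma). Sdf2 and Manf encode proteins of the endoplasmic reticulum, and Srm encodes spermidine synthase, which makes a polyamine used by growing cells.

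Sdf2 differed by 1.28 ± 0.20 (SE), with set differences of 1.38, 1.41, 1.90, 0.48, 1.33 and 1.57 in the order of sets above. Its mean level was 177 CPM in detected and 125 CPM in negative cells, but by set the unadjusted means overlapped, with 261 against 307 CPM in L32 HSC-2 and 96.5 against 97.1 CPM in L32 HSC-3. A read was present in 64.4% of detected and 38.7% of negative cells after thinning.

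Srm differed by 1.00 ± 0.18 (SE). Its mean level in detected against negative cells was 166 against 79.1 CPM in L29 HSC-3, 290 against 111 in L29 HSC-4, 279 against 83.3 in L32 HSC-2, 252 against 194 in L32 HSC-3, 77.9 against 12.5 in L32 HSC-4 and 144 against 61.5 in L32 HSC-5. Within each of the 6 sets the detected cells had the higher mean, although the 2 classes overlap across sets. After thinning, 65.6% of detected and 32.3% of negative cells had an Srm read. DESeq2 called Srm (log2 fold 1.68, adjusted p 0.01327), Nr2c1 (3.46, 0.02045) and Srsf6 (0.67, 0.04757), and edgeR called none of these. Over all alternatives the adjusted p ran from 0.01327 to 0.9989 for Srm, from 0.02045 to 0.9989 for Nr2c1 and from 0.04757 to 0.9989 for Srsf6 (limma, edgeR or DESeq2). Srsf6 encodes a splicing factor of the SR family and Nr2c1 an orphan nuclear receptor.

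Manf differed by 1.12 ± 0.18 (SE), and its level was higher in detected cells in each set, from 317 against 133 CPM in L29 HSC-3 to 67.7 against 43.0 CPM in L32 HSC-4. The set differences of Manf ran from 0.66 to 1.64 and those of Tomm34, a mitochondrial import factor, from 0.41 to 1.65. Zfp148, a zinc-finger transcription factor, stood at 599 CPM in the near-empty wells and at 147 CPM in kept cells with the same codes. The part of any background in its difference (0.97) was not tested.

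On the lower side the genes were Ncoa7, Tmem140, Dnpep, Prnp, Crebrf, Nsd3, Alkbh6, Arf4, Qk and Rab27b, with differences from -1.27 to -0.62 and adjusted p from 0.767 to 0.8587 (limma). Prnp encodes the prion protein, Crebrf a regulator of the stress factor Creb3, Nsd3 a histone methyltransferase and Arf4 a small GTPase of the Golgi.

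Ncoa7 differed by -1.27 ± 0.24 (SE). Its mean level in detected against negative cells was 20.1 against 195 CPM in L29 HSC-3, 52.3 against 130 in L29 HSC-4, 6.33 against 94.6 in L32 HSC-2, 75.6 against 180 in L32 HSC-3, 173 against 214 in L32 HSC-4 and 74.4 against 109 in L32 HSC-5. It was lower in detected cells in each set, yet the share of cells with a read was 41.1% against 43.5%. Prnp had a read in 8.89% of detected and 19.4% of negative cells, and Tmem140 in 16.7% and 30.6%. DESeq2 called Crebrf (log2 fold -2.46, adjusted p 8.718e-06) and Tmem140 (-2.80, 0.04814). Over all alternatives the adjusted p of Crebrf reached 0.9989 and that of Tmem140 0.9989 (limma or edgeR). In the near-empty wells Ncoa7 (179 against 122 CPM), Qk (59.5 against 25.2 CPM), Rab27b (144 against 28.2 CPM) and Crebrf (27.2 against 23.4 CPM) exceeded their level in kept cells with the same codes, and the part of this in their differences was not tested.

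**Figure D3:**
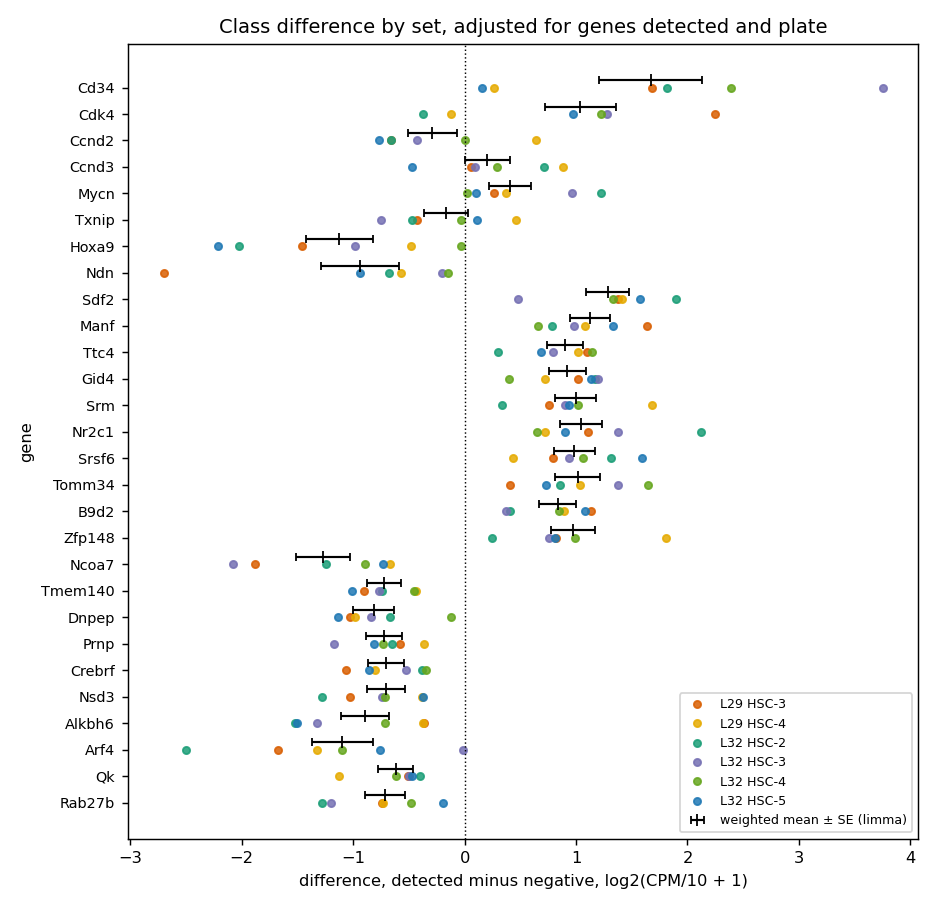
Difference between Cdk6-detected and Cdk6-negative cells in each set (coloured points) with limma's weighted mean and SE (black), in log2(CPM/10 + 1), adjusted for genes detected and plate. The 10 leading genes per direction lie on 1 side of 0 in all 6 sets, as their selection requires, while Cdk4 and Ccnd2 cross 0 and no gene passed adjustment in limma.

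In the lists below, passing refers to limma with genes detected as covariate. Over all 9688 genes tested in that fit, 52.7% lay above 0, which is the share to set beside each list's count. Among the G1 genes, 17 of 28 were tested, 0 passed, and 10 lay above 0, with a median of 0.06 (-0.01 without L32 HSC-3) against 0.01 over all genes tested. The kinase Cdk4, which shares its cyclins with Cdk6, was the furthest from 0 at 1.04 ± 0.32 (SE, 95% interval 0.31 to 1.77, adjusted p 0.8587 in limma). Its set differences were 2.25 in L29 HSC-3, -0.12 in L29 HSC-4, -0.37 in L32 HSC-2, 1.28 in L32 HSC-3, 1.22 in L32 HSC-4 and 0.97 in L32 HSC-5. A Cdk4 read was present in 96.7% of detected cells (87 of 90) and 73.4% of negative cells (91 of 124) after thinning, and the share was higher in detected cells in 6 of 6 sets. In 51 pairs of cells matched within sets to within 500 genes, a choice made after the data were seen, the shares were 94.1% and 72.5%. Thinned detected cells still held more genes than thinned negative cells, with medians of 4732 against 4050. How many of all genes had a higher share in 6 of 6 sets was not counted, so that count has no background beside it.

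The D-type cyclins, which activate both kinases, lay closer to 0. Ccnd2, the most abundant at 709 and 745 CPM, differed by -0.29 ± 0.22 (SE, 95% interval -0.79 to 0.21), with a read in 93.3% and 93.5% of cells. Ccnd3 differed by 0.20 (interval -0.26 to 0.67) and Ccnd1 by 0.18 (-0.25 to 0.60). Ccnd1 was low, at 28.1 against 13.3 CPM, with a read in 25.6% and 8.87% of cells. These intervals still allow a lower Ccnd2 or a higher Ccnd3 by more than 0.5.

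The S-phase kinase Cdk2 differed by 0.39 (interval -0.49 to 1.28), with set differences from -1.27 to 2.36. Of the INK4 inhibitors that block Cdk4 and Cdk6, Cdkn2c differed by 0.16 (interval -0.36 to 0.68) and Cdkn2d by -0.39 (-0.98 to 0.20). The p107 gene Rbl1 differed by 0.09 and the p130 gene Rbl2, which encodes the pocket protein of resting cells, by -0.41 ± 0.17 (SE, adjusted p 0.8934 in limma), below 0 in 5 of 6 sets. E2f4, an E2F factor that works with p130, differed by -0.21 and its dimer partner Tfdp1 by 0.19. The p27 inhibitor gene Cdkn1b, under the filter on low values, had a read in 12.2% of detected and 10.5% of negative cells.

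**Figure D4:**
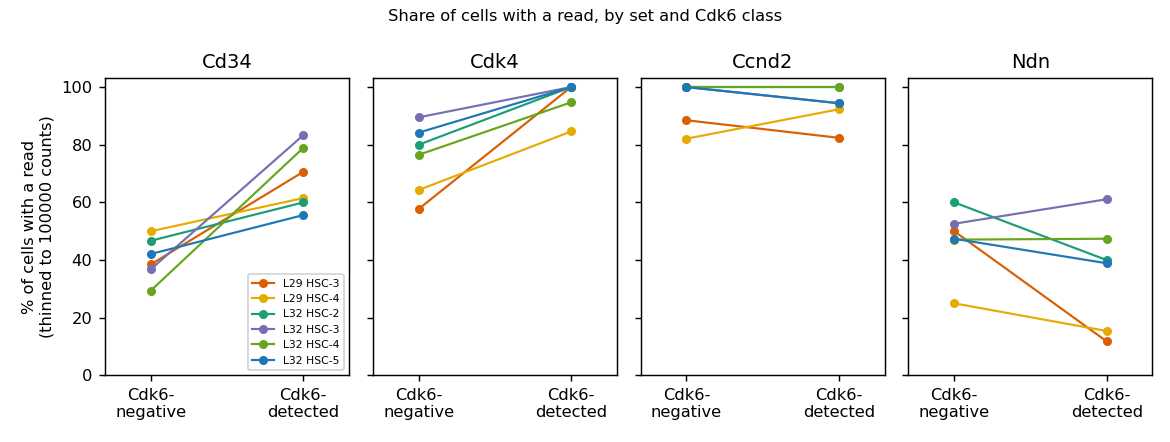
Percent of cells with at least 1 read of Cd34, Cdk4, Ccnd2 and Ndn after thinning every cell to 100000 gene counts, in Cdk6-negative and Cdk6-detected cells; each line is 1 set. The lines of Cd34 and Cdk4 go up in 6 of 6 sets, those of Ccnd2 stay near 82 to 100%, and those of Ndn go both ways. Thinned detected cells still held more genes, and how many of all genes go up in 6 of 6 sets was not counted.

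Of the partners and substrates of Cdk6, 11 of 13 genes were tested, 0 passed, and 8 lay above 0 (median 0.20, but 0.08 without L29 HSC-3 and 0.31 without L32 HSC-3). The chaperones that fold the kinase, Hsp90ab1 and Cdc37, differed by 0.32 (interval -0.17 to 0.81) and 0.55 (-0.26 to 1.35). The glycolytic enzymes that Cdk6 phosphorylates, Pkm and Pfkp, differed by 0.20 and 0.34, and the transcription factor Runx1 by 0.16. Hsp90ab1 rested on L29 HSC-4, at 1.32 there and -0.11 to 0.26 in the other 5 sets.

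For genes of S phase the class difference depended on whether genes detected entered the fit. With plate alone as covariate, 28 of 29 tested S-phase genes lay above 0 with a median of 0.56, while 72.3% of all genes did so with a median of 0.15. With genes detected added, 18 of 29 lay above 0 with a median of 0.10 (0.13 when L29 HSC-4 was left out, -0.01 when L29 HSC-3 was), and 0 passed. Without the cells carrying G2/M genes it was 16 of 29, with a median of 0.07. In the matched pairs 11 of 29 did, with a median of -0.15, and edgeR on sums, which carries no such covariate, gave 27 of 29 with a median log2 fold of 0.82. Each kept cell held a mean of 12.2 S-phase genes with a read in the detected class and 7.57 in the negative class after thinning, against 8.8 and 9.61 in the matched cells. The list's direction thus changed with how cells of unequal gene number were compared.

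The MCM genes encode the helicase that licenses origins for replication. Mcm4 differed by 0.75 ± 0.23 (SE, adjusted p 0.8587 in limma), above 0 in 6 of 6 sets. Its level was 302 against 18.7 CPM in L29 HSC-4, 344 against 122 in L32 HSC-2, 197 against 97.1 in L32 HSC-3, 145 against 78.0 in L29 HSC-3, 145 against 64.3 in L32 HSC-5 and 141 against 102 in L32 HSC-4. Each set's detected mean was the higher one. Mcm3 differed by 0.46 (interval 0.04 to 0.88) and Mcm6 by 0.10 (-0.92 to 1.12), the latter from -1.37 to 1.86 by set. Rrm1, a subunit of ribonucleotide reductase, differed by -0.60, and Cdca7 and Rfc2 by 0.41 and 0.36. DESeq2 called Mcm2 (log2 fold 1.43), Tyms (1.23) and Uhrf1 (2.69), for which the differences with genes detected as covariate were 0.10, 0.04 and 0.11. Mcm4 and Rrm1, like Ndn, Hoxa9, Dusp1, Nop16, Hspe1, Uqcrfs1 and Slc25a5 below, were named for an unadjusted p under 0.05 in limma. They were thus chosen after their values were seen, and an interval that leaves out 0 follows from that choice.

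Of 32 G2/M genes, 6 were tested, 0 passed and 4 lay above 0 (median 0.11, but 0.01 without L32 HSC-3 and 0.20 without L29 HSC-3). Bub3, a spindle checkpoint gene, differed by 0.21, the condensin gene Smc4 by 0.35 and the midbody kinesin Kif23 by -0.14, with set differences of Kif23 from -1.39 to 3.08. At least 5 G2/M genes at 10 CPM were found in 20 of 90 detected cells (22.2%, interval 14.1 to 32.2%) and in 10 of 124 negative cells (8.06%, 3.94 to 14.3%). In the matched cells the counts were 3 of 51 and 5 of 51. Without Smc4, Smc2 and Bub3, a choice made after the data were seen, the shares were 6.67% and 1.61%. Mki67, a marker of cycling cells, had a read in 10.0% of detected and 6.45% of negative cells. No gene of the G1, S phase or G2/M lists passed in limma or edgeR, and DESeq2 called the 3 S-phase genes above. The cells are therefore called Cdk6-detected only, and not by a name for cells able to leave G0.

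Of the quiescence genes, 15 of 25 were tested, 0 passed, and 5 lay above 0, with a median of -0.16 (-0.03 without L32 HSC-3). Txnip, which encodes an inhibitor of thioredoxin and glucose uptake, stood at 1640 against 2060 CPM and differed by -0.16 (interval -0.61 to 0.28). Tsc22d3, a glucocorticoid-induced gene, differed by 0.37 (-0.59 to 1.32). Ndn, which encodes necdin, a growth suppressor of HSCs, differed by -0.94 ± 0.35 (SE, adjusted p 0.8913 in limma), below 0 in 6 of 6 sets. It ranged from -2.70 in L29 HSC-3 to -0.15 in L32 HSC-4, and was -0.49 without L29 HSC-3. The unadjusted Ndn means were lower in detected cells in 5 sets and 124 against 97.3 CPM in L32 HSC-4.

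Growth and ribosome biogenesis genes, among them Srm, had most members above 0. All 29 were tested, 0 passed in limma (DESeq2 called Srm), and 24 lay above 0 with a median of 0.23 (0.09 without L32 HSC-3, 0.25 without L29 HSC-4). The counts above 0 were 27 with plate alone and 17 in the matched cells (medians 0.57 and 0.16). Over all genes tested, 52.7% lay above 0 with genes detected as covariate, 72.3% with plate alone and 53.1% in the matched cells. Mycn, a MYC-family factor of HSCs, differed by 0.41 ± 0.19 (SE), above 0 in 6 of 6 sets, at 616 against 467 CPM. Nop16, a nucleolar factor, differed by 0.96 (interval 0.25 to 1.67) and the chaperonin gene Hspe1 by 0.66 (0.27 to 1.05). Their adjusted p was 0.8607 and 0.8587 (limma), and their choice by unadjusted p fixes that these intervals leave out 0. Eif5a differed by 0.36, Ncl by 0.23 and Npm1 by 0.19. Myc had a read in 71.1% of detected and 54.0% of negative cells, and in 64.7% and 60.8% of matched cells. Of the genes for ribosomal proteins themselves, 33 of 33 were tested, 0 passed, 9 lay above 0, and the median was -0.03 within a span of -0.18 to 0.11. The count above 0 was 18 in the matched cells (median 0.01) and 14 without L32 HSC-2 (median -0.01). With edgeR on sums it was 3 (median log2 fold -0.15). Rplp0, of the ribosomal stalk, differed by -0.05 (interval -0.37 to 0.27).

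Oxidative phosphorylation genes had 19 of 26 above 0 with a median of 0.14, and 0 passed. In the matched cells 16 of 26 lay above 0 (median 0.14). With edgeR on sums it was 12 of 26 (median log2 fold -0.00), where 45.1% of all genes lay above 0. Atp5b and Atp5a1 of the ATP synthase differed by 0.52 (interval 0.03 to 1.00) and 0.24 (-0.29 to 0.77). Uqcrfs1 of complex III differed by 0.78 (0.13 to 1.42) and the ADP/ATP carrier gene Slc25a5 by 0.80 (0.04 to 1.56). The adjusted p of Uqcrfs1 was 0.8913 and that of Slc25a5 0.8934 (limma), and their choice by unadjusted p fixes that their intervals leave out 0. Lysosome and autophagy genes had 12 of 23 above 0 (median 0.05), with Ctsb, a lysosomal protease, at -0.36 (interval -0.81 to 0.09).

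**Figure D5:**
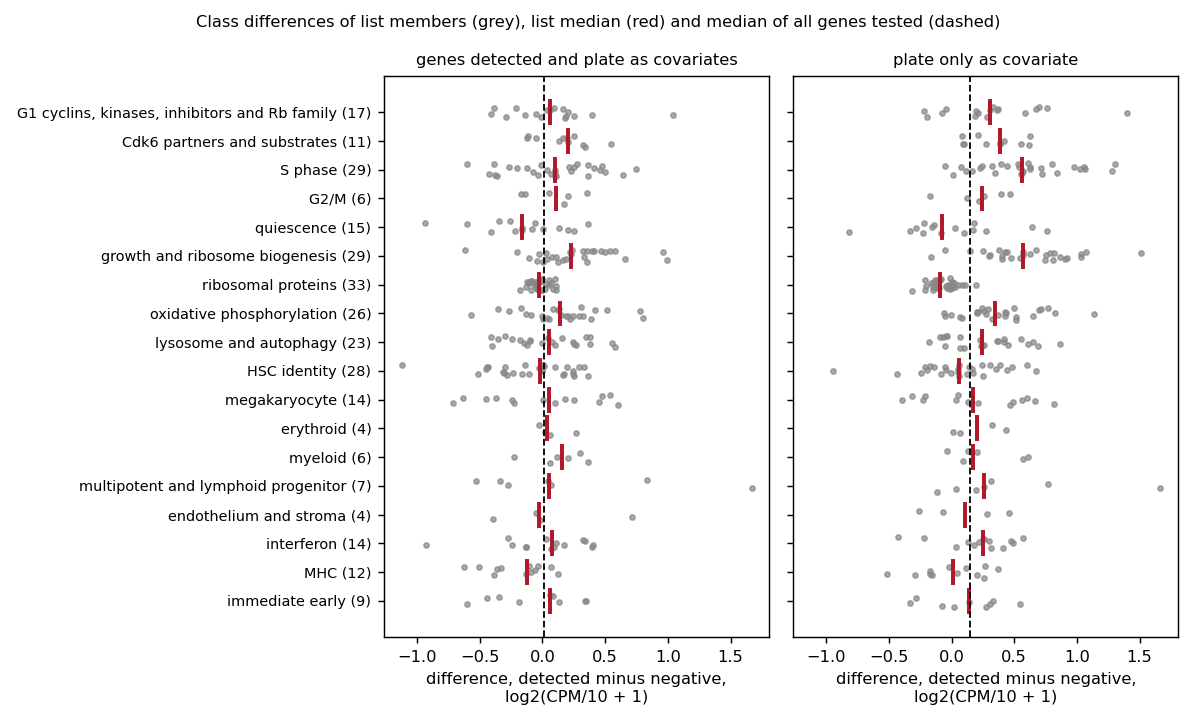
Class differences in log2(CPM/10 + 1) of the tested members of each list with 4 or more (grey points; number tested in parentheses), the list median (red) and the median of all 9688 genes (dashed), with genes detected and plate as covariates (left) and with plate only (right). With plate only the S-phase median is 0.56 and the dashed line 0.15; with genes detected they are 0.10 and 0.01.

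Transcripts of the positive markers of the sort gate were found in both classes, though Slamf1 only in a minority of cells. Procr is given beside them and is not part of the gate. Kit had a read in 92.2% of detected and 84.7% of negative cells, Ly6a (Sca-1) in 74.4% and 69.4%, Procr in 58.9% and 54.0%, Slamf1 (CD150) in 27.8% and 20.2%, and Cd48 in 1 cell of each class. All 28 HSC identity genes were tested, 0 passed in limma and 12 lay above 0, with a median of -0.02. Kit, the stem cell factor receptor, differed by 0.20, the homeobox factor Meis1 by 0.26 and the ligand Angpt1 by 0.10. Each of these had set differences of both signs. Hoxa9, a homeobox factor of stem and progenitor cells, was the furthest from 0 at -1.12 ± 0.30 (SE, interval -1.80 to -0.44, adjusted p 0.8587 in limma), below 0 in 6 of 6 sets. Its mean was 84.2 CPM in detected and 186 CPM in negative cells, from 7.06 against 281 CPM in L32 HSC-2 to 162 against 184 CPM in L32 HSC-4. DESeq2 called Ly6a lower (log2 fold -0.76), where limma's difference was 0.01.

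Cd34, a surface sialomucin that appears as long-term HSCs give way to shorter-lived progenitors, had the largest difference above 0 of all genes tested, at 1.67 ± 0.46 (SE, interval 0.61 to 2.73, adjusted p 0.8587 in limma). The set differences were 1.68 in L29 HSC-3, 0.26 in L29 HSC-4, 1.82 in L32 HSC-2, 3.75 in L32 HSC-3, 2.39 in L32 HSC-4 and 0.16 in L32 HSC-5. All were above 0, with 2 sets close to 0. Its mean level in detected against negative cells was 339 against 138 CPM in L29 HSC-3, 272 against 244 in L29 HSC-4, 428 against 93.2 in L32 HSC-2, 593 against 264 in L32 HSC-3, 359 against 92.0 in L32 HSC-4 and 277 against 165 in L32 HSC-5. The lowest detected mean (272 CPM in L29 HSC-4) lay just above the highest negative one (264 CPM in L32 HSC-3). These means are not adjusted for genes detected. How many of all genes have set means that part in this way was not counted, so no class separation is read from it. A Cd34 read was found in 70.0% of detected cells (63 of 90, interval 59.4 to 79.2%) and 41.1% of negative cells (51 of 124, 32.4 to 50.3%) after thinning, higher in detected cells in 6 of 6 sets, and in 70.6% and 49.0% of matched cells. Over all alternatives its adjusted p ran from 0.06178 to 0.9989 (limma, edgeR or DESeq2). Thinned detected cells held more genes, and how many of all genes had a higher share in 6 of 6 sets was not counted.

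Cd34 belongs to the list of multipotent and lymphoid progenitor genes. Of this list, 7 of 17 were tested, 0 passed and 4 lay above 0 (median 0.05). Mef2c, a lymphoid and myeloid transcription factor, differed by -0.53 and Cd27, a co-stimulatory receptor, by -0.34. The level of Mef2c in near-empty wells, 856 CPM, exceeded the 196 CPM of kept cells with the same codes.

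Markers of other lineages were compared as whole lists. Megakaryocyte genes had 8 of 14 tested above 0 (median 0.05), with Nfe2, a megakaryocyte and erythroid factor, at 0.61 and the tetraspanin Cd9 at -0.45, and 0 passed. Vwf had a read in 28.9% of detected and 29.0% of negative cells. Summed erythroid genes were 1480 to 2300 CPM by set in detected and 1310 to 2940 CPM in negative cells, summed myeloid genes 551 to 1490 and 1070 to 1470 CPM, and endothelial and stromal genes 117 to 276 and 124 to 291 CPM. In each of these lists the ranges of the classes overlap. Above 0 were 3 of 4 tested erythroid, 5 of 6 myeloid and 1 of 4 endothelial and stromal genes, and 0 passed.

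Summed T and NK cell genes were low but higher in detected cells in 6 of 6 sets, at 13.9 to 56.9 CPM against 4.51 to 19.4 CPM. None of the 11 genes passed the filter on low values. The sum was made mostly of Lck (19.0 against 5.86 CPM) and Nkg7 (19.0 against 3.17 CPM). Cd3e and Cd3g, which encode CD3 subunits of the T cell receptor complex, stood at 0.0634 and 0.127 CPM in detected cells. Trac stood at 1.52 against 0.0826 CPM, with 95.8% of its reads in detected cells from 1 cell, and Klrd1, Gzma and Ncr1 had 0 reads in detected cells. The part of this in the gene differences was not tested. Among 8 mast cell and basophil genes, Cpa3 was at 13.6 against 1.95 CPM, in 11 and 2 cells, and Fcer1a and Mcpt4 had 0 reads in both. B cell genes summed to 2.56 to 128 CPM and 23.7 to 118 CPM by set, nearly all of it Cd79b.

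Of 13 MHC genes, which serve antigen presentation, 12 were tested, 0 passed in limma, and 2 lay above 0 (median -0.12, and -0.31 without L29 HSC-4). In the matched cells 6 of 12 did, with a median of -0.02. DESeq2 called Cd74, the invariant chain of class II molecules, lower (log2 fold -1.24), where limma's difference was -0.36; it was named after its values were seen. B2m, the light chain of class I molecules, stood at 7950 against 9220 CPM and differed by -0.13 (interval -0.47 to 0.21). The class I gene H2-T23 differed by -0.63 ± 0.21 (SE, adjusted p 0.8738 in limma), below 0 in 6 of 6 sets. Class I genes have near-identical copies between which reads may be split. Interferon genes had 9 of 14 above 0 (median 0.08), while Oasl2, an antiviral gene, differed by -0.93 ± 0.25 (SE, adjusted p 0.8587 in limma), below 0 in 6 of 6 sets. Of the immediate early genes 5 of 9 tested lay above 0 (median 0.06, from -0.20 to 0.27 when 1 set was left out), and the phosphatase gene Dusp1 differed by -0.60.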

How the data were processed

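The authors deposited 1 table with raw read counts for every gene in every cell. GSNAP and featureCounts (1.6.2) are named with mm10 in the submitters' processing notes; the table's name gives Ensembl release 87. Multi-mapping and strand handling are not given in the sources used here. Per the labels' protocols, cDNA was amplified with 22 PCR cycles, and no molecular identifier is described. Intervals of shares of cells cover counting error only. Intervals of gene differences come from limma and cover set-to-set spread. No doublet caller was run on these single-cell wells. The 92 spike-in rows (11.7% of counts) and the transgene row stayed out of totals.

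Per gene and set, log2(CPM/10 + 1) was regressed on class, plate and genes detected; the 6 coefficients, weighted by cells per class, were tested in limma 3.58.1 with Benjamini-Hochberg adjustment over 9688 genes (10 CPM in at least 10% of kept cells). Cdk6 and 2 genes overlapping it were left out. edgeR 4.0.16 and DESeq2 1.42.0 were run on summed counts. limma, not edgeR, was the main test because a covariate per cell was needed. The fits were tested on simulated data.

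The members, 21 gene lists (424 genes) and rules were chosen with earlier results of these data known. The naming rule took the 10 genes per direction (smallest p, 1 sign in every set, since none passed), the 4 most abundant tested members of each list and all G1 and partner genes; values are printed for part of these, picked by role after their values were seen; a few others are not reported here.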

Additional observations from a re-analysis of the deposited data

Results flagged for a closer look

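By chance, 1 set lies far from the other 5 in about 1 in 20 values, if all sets are equally precise. The sets differ in cells per class, so that rate is only a rough guide. Of 125 values over the 6 sets (122 gene differences among them), 13 had such a set, or 10.4%, and no excess over chance is read from this. L32 HSC-2, with 5 Cdk6-detected cells, was that set for Cdca7 (2.77 there, -0.24 to 0.72 elsewhere), Cdkn2d (-2.33, -0.50 to 0.36), Tfdp2 (-2.28, 0.00 to 0.74) and Sqstm1 (-2.09, 0.14 to 0.92). L29 HSC-4, with fewer genes per cell, was that set for Hsp90ab1 (1.32, -0.11 to 0.26), Meis1 (-1.01, 0.32 to 0.94) and Qk (-1.13, -0.62 to -0.40). L29 HSC-3 stood apart for Ndn (-2.70, -0.94 to -0.15) and Runx1 (1.51, -0.53 to 0.22), and L32 HSC-4 for E2f4 (-1.65, -0.17 to 0.48) and Col1a2 (1.32, -0.66 to 0.00). L32 HSC-3 stood apart for Ccnd1 (0.92, -0.17 to 0.19) and L32 HSC-5 for Csf3r (1.08, -0.25 to 0.11). A test of the L29 against the L32 sets called 0 of 9688 genes in limma (lowest adjusted p 0.998, 453 at an unadjusted p under 0.05).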

How the results depend on the processing

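The count of genes called stayed at 0 in both directions under 22 of 24 alternatives, each leave-one-set-out fit (0 to 0) and the matched cells included. DESeq2 gave 25 higher and 27 lower. With a read in 1% of cells as the only filter, 1 gene was lower, Ephb4 (-0.33, adjusted p 0.042 in limma, named after its value was seen). With plate only, 0 were called but 1288 genes had an unadjusted p under 0.05 (13.3%, 1232 of them higher). RNA content was 0.094 with genes detected added and 0.21 to 0.36 when 1 set was left out, where 5 sets cannot give a p under 0.0625. Mitochondrial share was -0.083 without L29 HSC-4 and -0.50 to -0.78 without another set. With at least 3 G2/M genes the shares were 61.1% and 36.3%, with reads after thinning 32.2% and 12.1%, and without Smc4, Smc2 and Bub3 6.67% and 1.61%.

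The 20 leading genes kept their sign in each of the 23 or 24 alternatives that gave them a value, which their choice for 1 sign in every set fixes when 1 set is left out and favours elsewhere. DESeq2 alone put 5 of them past the threshold. Of the 102 list genes taken by the rule or added, 63 changed sign in at least 1 alternative, so the sign of most list genes is not settled. For those whose values are printed, the differences of other sign were as follows, and the cause was not tested. The medians of 8 of the 19 lists with tested members also changed sign when 1 set was left out.
With Cdk6 at 50 CPM or more, they were 0.21 for Ccnd2, -0.063 for Ccnd3 and -0.030 for Mcm6. With DESeq2, they were -0.27 for Tfdp2, -0.17 for Smc4, -0.067 for Kit, -0.52 for Csf3r and 0.39 for Rrm1. In matched cells, they were -0.22 for Cdk2, -0.024 for Cdkn2c, -0.001 for Tfdp1, -0.007 for Mcm6, -0.40 for Cdca7, -0.18 for Ncl, 0.011 for Rplp0, -0.22 for Kit and 0.30 for Col1a2. After thinning, they were -0.093 for Angpt1, -0.020 for Csf3r and 0.006 for Col1a2. Within 3 median absolute deviations, they were -0.12 for Mcm6 and 0.050 for Col1a2. With edgeR on sums of matched cells, they were 0.14 for Ccnd2, -0.16 for Ccnd3, -0.54 for Ccnd1, -0.93 for Tfdp1, -0.55 for Tfdp2, -0.44 for Mcm6, -0.27 for Mcm3, -0.14 for Ncl, -0.043 for Kit, -1.14 for Csf3r and 0.010 for Col1a2. With edgeR on all sums, they were -0.28 for Tfdp2, -0.008 for Pkm, -0.18 for Smc4, -0.004 for Ncl, -0.088 for Kit, -0.53 for Csf3r and 0.36 for Rrm1. With total counts added, it was 0.004 for Col1a2. With RNA content and mitochondrial share added, it was -0.068 for Tfdp2. Without plate, it was -0.009 for Tfdp2. With plate only, they were 0.26 for Cd27, 0.28 for Col1a2 and 0.078 for Rrm1. With equal weights, they were -0.17 for Tfdp2 and 0.20 for Kif23. Without cells carrying G2/M genes, they were -0.031 for Rbl1, -0.077 for Mcm6, -0.010 for Angpt1 and 0.11 for Col1a2. Leaving out 1 set gave -0.15 to 0.46 for Angpt1, -0.30 to 0.12 for Col1a2, -0.10 to 0.20 for Csf3r, -0.37 to 0.10 for E2f4, -0.40 to 0.18 for Kif23, -0.022 to 0.50 for Kit, -0.25 to 0.43 for Mcm6, -0.043 to 0.36 for Ncl, -0.011 to 0.17 for Rbl1, -0.18 to 0.31 for Runx1, -0.052 to 0.70 for Smc4 and -0.084 to 0.25 for Tfdp2.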
